A study of Mus musculus with 8 samples.

Results

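m6ARIP-seq peaks in zinc finger protein (Zfp) genes were compared between control livers (*Wtap* flox/flox) and livers lacking hepatocyte *Wtap* (*Wtap*-HKO). A peak was a member when the gene symbol beside it read Zfp followed by a digit, a rule that uses no measured value. The control list held 614 such peaks of 15635, the *Wtap*-HKO list held 671 of 19185, and the list of differential peaks held 45 of 3870. Together the lists of the 2 genotypes named 307 Zfp genes by Ensembl identifier, of 11558 genes with a peak. These carried 306 symbols, since Zfp935 stood for 2 identifiers.

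In m6ARIP-seq, fragmented poly(A) RNA is immunoprecipitated (IP) with an antibody to N6-methyladenosine (m6A) and compared with input RNA. All mice were labelled C57BL/6 (a C57BL/6J background in the study's methods), 8 weeks old and on normal chow. The controls were *Wtap* flox/flox, and the *Wtap*-HKO mice were *Wtap* flox/flox with Alb-Cre, which deletes *Wtap* in hepatocytes and leaves it in the other cells of the liver. Each genotype had 2 IP and 2 input libraries, each replicate pooled from 5 mice, but the replicates were combined in every deposited list. No value below therefore has a spread between replicates, and no difference between genotypes could be compared replicate by replicate here. Whether a peak had to be consistent between replicates to be listed is not stated in the study's methods. The read depth behind a peak is also unknown. In whole liver, fewer cells of a type and less RNA per cell cannot be told apart.

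WTAP is the regulatory subunit that holds the METTL3 and METTL14 m6A methyltransferase in nuclear speckles. Most Zfp genes encode transcription factors whose C2H2 fingers bind DNA. The largest class also carries a Krueppel-associated box (KRAB), which recruits TRIM28 and the histone methyltransferase SETDB1, and many of these proteins silence retroelements. KRAB genes lie in clusters of close paralogs, and their fingers are commonly encoded by a single long last exon. A small separate class, Zfp36, Zfp36l1 and Zfp36l2, has CCCH fingers that bind AU-rich elements in mRNA and recruit the CCR4-NOT deadenylase.

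Peaks that covered an annotated start site were few, and the sequences there are shown because sequence was at hand only around such sites. In all, 5 control and 16 *Wtap*-HKO Zfp peaks touched the stretches with sequence, and those over the first base are shown. Of the 306 symbols, 210 had 1 entry in the RefSeq promoter table (GRCm38.p6), and a peak covered the first base of the gene in 3 of them in the controls and in 7 in *Wtap*-HKO. Each window runs 5′ to 3′ on the gene's strand from 10 bases before the annotated start to base 20 of the gene. Capitals mark the bases that the *Wtap*-HKO peak covered.
Zfp36l1, chr12:80112994-80113023, minus strand: gccgcagcccGGGAGAGTCAGAAAGGCGAG
Zfp653, chr9:22071357-22071386, minus strand: cgaggctcctAACAACGGGGGAGGCCGGTA
Zfp830, chr11:82764335-82764364, plus strand: ctcggaagctAGACTCGCCTGAGTCCTGGG
Zfp91, chr19:12796104-12796133, minus strand: tatcgccGCCATTTTTTCAGAGACTTTCAT
Zfp652, chr11:95749057-95749086, plus strand: GCCTGCCGTAAGAACAGCCCTTTTTgactt
Zfp768, chr7:127345295-127345324, minus strand: GTGGCGAGGGCTCGGGGCTCCAGGCACTCG
Zfp787, chr7:6155946-6155975, minus strand: CGGGAAGGTCACTTCCGGCCTGGGCGCCCG

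The peaks of Zfp36l1, Zfp653 and Zfp830 ended on the annotated first base itself, whereas those of Zfp652, Zfp768 and Zfp787 ran on upstream of it. Of the 7 windows, 3 were covered in both genotypes. In Zfp36l1 the peak had the same 210 exonic nucleotides in both lists, and its fold enrichment was 3.51 in the controls and 10.2 in *Wtap*-HKO. In Zfp768 it was 3.84 and 11.1, and in Zfp653 it was 8.08 and 6.32, so the last went the other way. Fold enrichment is the linear ratio of IP to input over the peak as the peak caller wrote it. The letters GGAC, the core of the m6A consensus, were searched on the sense strand of the first 50 bases of the gene, and within the covered bases they stood in Zfp36l1 and Zfp91. They were present in 18.9% of all 32851 start windows and in 16.5% of the 406 Zfp windows, so a match there is a description only.

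A larger share of Zfp genes than of all genes had a peak. Of 397 protein-coding Zfp symbols in RefSeq, 306 (77.1%) had a peak in at least 1 list, against 45.2% of all 21896 protein-coding symbols. The other 91 had none, and whether they are transcribed in these livers cannot be read from peak lists. By the InterPro names printed beside each gene, 187 of the 307 genes encoded KRAB proteins, 110 had C2H2 fingers without KRAB or SCAN, 4 had SCAN without KRAB, 3 were the CCCH genes, and 3 had neither a C2H2 nor a CCCH entry. Genes on chromosomes 7, 17 and 13 held 290 of the 614 control peaks (47.2%), where 17% of all peaks of that list lay. Chromosome 7 alone had 77 of the genes, with 151 peaks in the controls and 145 in *Wtap*-HKO.

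The Zfp peaks were strongly enriched, above all those of the KRAB class. Their median fold enrichment was 8.18 (quartiles 5.17 and 13.9) in the controls against 5.51 over all peaks, and 7.59 (4.96 and 13.6) in *Wtap*-HKO against 5.93. Control medians were 9.77 over 344 KRAB peaks and 6.69 over 253 peaks of the C2H2 class. In *Wtap*-HKO these values were 9.49 over 369 peaks and 6.52 over 286. Peaks of Zbtb, Zscan and Zkscan genes, zinc finger families under other names, had medians of 7.06 (150 peaks) and 6.6 (140 peaks). The statistical evidence per peak did not follow the fold, since the median −log10 of the deposited false discovery rate was 11.9 for Zfp peaks and 21.9 for all peaks in the controls, and 12.8 and 22.4 in *Wtap*-HKO.

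**Figure D1:**
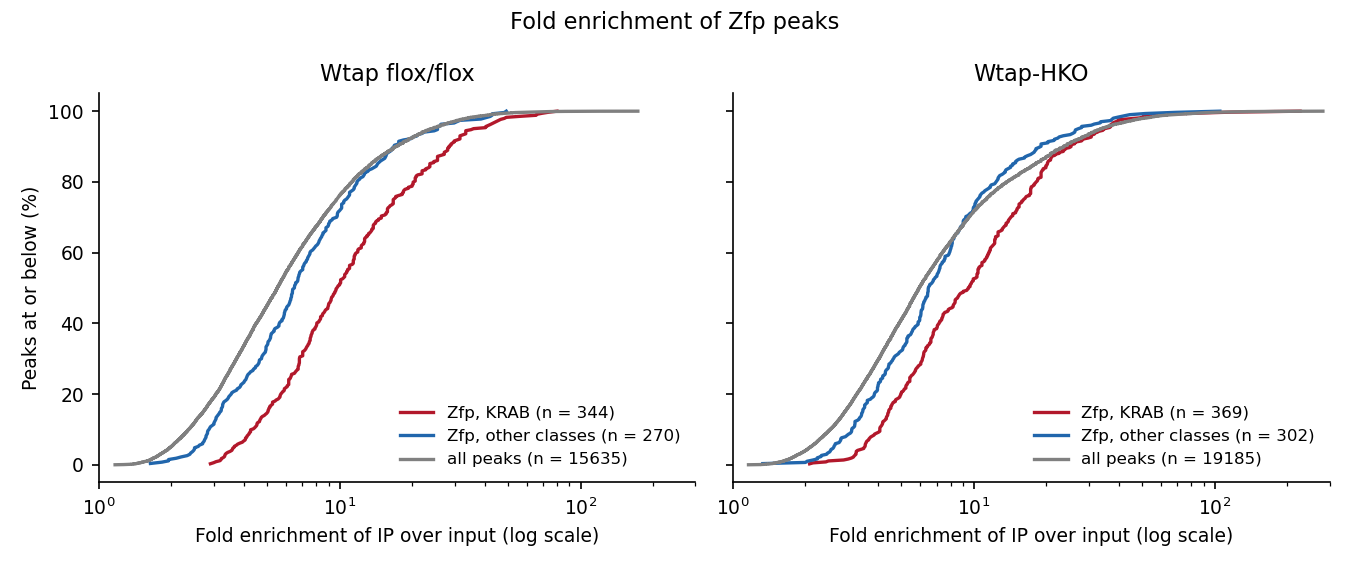
Cumulative share of peaks (%) by fold enrichment of IP over input (log scale) in the control and *Wtap*-HKO lists, for KRAB Zfp peaks, Zfp peaks of the other classes and all peaks, each line being 1 combined list. The KRAB line lies to the right of the other lines over most of its length, with medians of 9.77 and 9.49.

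The upper end of the distribution differed between the lists. In the controls, 95 of the Zfp peaks (15.5%) had a fold enrichment of 20 or more, where 7.58% of all peaks did. In *Wtap*-HKO the Zfp count was 85 (12.7%), while the share over all peaks was 12.9%. Ranked within its own list, the median Zfp peak stood at percentile 68.2 in the controls and at percentile 61.1 in *Wtap*-HKO.

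The 5 highest control values were all in KRAB genes, as were 3 of the 5 highest in *Wtap*-HKO, where KRAB peaks made up 56% and 55% of the Zfp peaks. The control values were 79.9 and 73.8 in 2 overlapping peaks of Zfp729a, 69.4 in Zfp763, 65.9 in Zfp87 and 65.4 in Zfp758. In *Wtap*-HKO they were 226 in Zfp758, 116 in Zfp52, 105 in Zfp366, 85.8 in Zfp69 and 69 in Zfp503. Zfp366 is known from dendritic cells, Zfp503 from the developing striatum, and Zfp69 is a candidate gene of a mouse diabetes locus. The Zfp758 peak (GRCm38 chr17:22374813-22375259) had identical bounds in both genotypes. The deposited lists carry no reads, and how reads that fit several paralogs were placed is not given in the sources used here, so the gene that owns a KRAB peak is uncertain. Among control Zfp peaks, 14 (2.28%) shared bases on the same strand with a peak named for another gene, and in *Wtap*-HKO 13 did (1.94%), against 2.72% and 2.64% of all peaks.

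Zfp peaks were about as long as others, and few of them spanned an exon junction. The median exonic length was 271 nucleotides in the controls against 269 over all peaks, and 268 in *Wtap*-HKO against 240. Only 5.05% of Zfp peaks in the controls were made of more than 1 exonic block, against 14.5% of all peaks, and in *Wtap*-HKO these shares were 7% and 19.2%. The longest peaks in the controls were 1888 nucleotides in Zfp623, 1886 in Zfp281 and 1496 in Zfp36l2. In *Wtap*-HKO they were 1731 in Zfp87, 1589 in Zfp322a and 1556 in Zfp36l2. Zfp281 encodes a transcription factor of pluripotent cells, and its long peak (fold enrichment 16.8) was replaced in *Wtap*-HKO by peaks of 629 and 958 nucleotides (8.09 and 9.56). In Zfp87 the opposite was seen, with 3 control peaks (43.9, 65.9 and 8.28) and 1 peak over the same stretch in *Wtap*-HKO (61.4).

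Many genes held several peaks. The most control peaks were 9 in Zfp646, 8 in Zfp865 and 7 each in Zfp62, Zfp318 and Zfp609. The same genes held 6, 8, 3, 5 and 5 peaks in *Wtap*-HKO. The 9 peaks of Zfp646 had fold enrichments from 2.83 to 8.78, and its 6 peaks in *Wtap*-HKO from 5.08 to 12.7. Those of Zfp62 reached 19.8 in the controls and 7.39 in *Wtap*-HKO. Among the 253 Zfp genes with a peak in both lists, 74 had more peaks in *Wtap*-HKO, 57 had fewer and 122 had the same number. The same counts over all 8096 genes in both lists were not made. Peaks per gene were 2.26 in the controls and 2.33 in *Wtap*-HKO for Zfp genes, and 1.73 and 1.8 over all genes.

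Along the gene, Zfp peaks lay mostly in the last 3 of 10 equal bins of the gene span, and few lay at the start. These 3 bins held 73.4% of Zfp peaks in the controls and 69.8% in *Wtap*-HKO, against 62.6% and 53.5% of all peaks. The shares were 80.2% and 81.2% for the KRAB class, and 65.7% and 57.6% for the C2H2 class. Positions were read against the RefSeq gene span, which includes introns, for 608 and 660 of the Zfp peaks. Exons and untranslated regions could not be assigned, since no exon annotation was at hand. In the controls, 10 Zfp peaks (1.64%, Wilson 95% interval 0.896 to 3, counting error only) had an edge within 200 nucleotides of the 5′ end, against 10.7% of all placed peaks. In *Wtap*-HKO the count was 21 (3.18%, 2.09 to 4.82) against 18.2%. Peaks of Zbtb, Zscan and Zkscan genes were also few near the 5′ end, with 4.08% in the controls and 4.41% in *Wtap*-HKO. At the 3′ end the shares were 3.45% against 10% in the controls and 3.33% against 8.25% in *Wtap*-HKO. By midpoint, the last bin held the most Zfp peaks of any bin, 27.5% in the controls and 27.3% in *Wtap*-HKO, against 41.8% and 35.4% of all peaks. The eighth and the ninth bin together held 45.9% of Zfp peaks in the controls, where 20.8% of all peaks lay, and 42.6% in *Wtap*-HKO, where 18.1% lay. For KRAB genes alone these bins held 53.6% and 52.2%. The Zbtb, Zscan and Zkscan peaks had 21.8% there in the controls, close to all peaks. In *Wtap*-HKO they had 25%, above the 18.1% of all peaks.

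**Figure D2:**
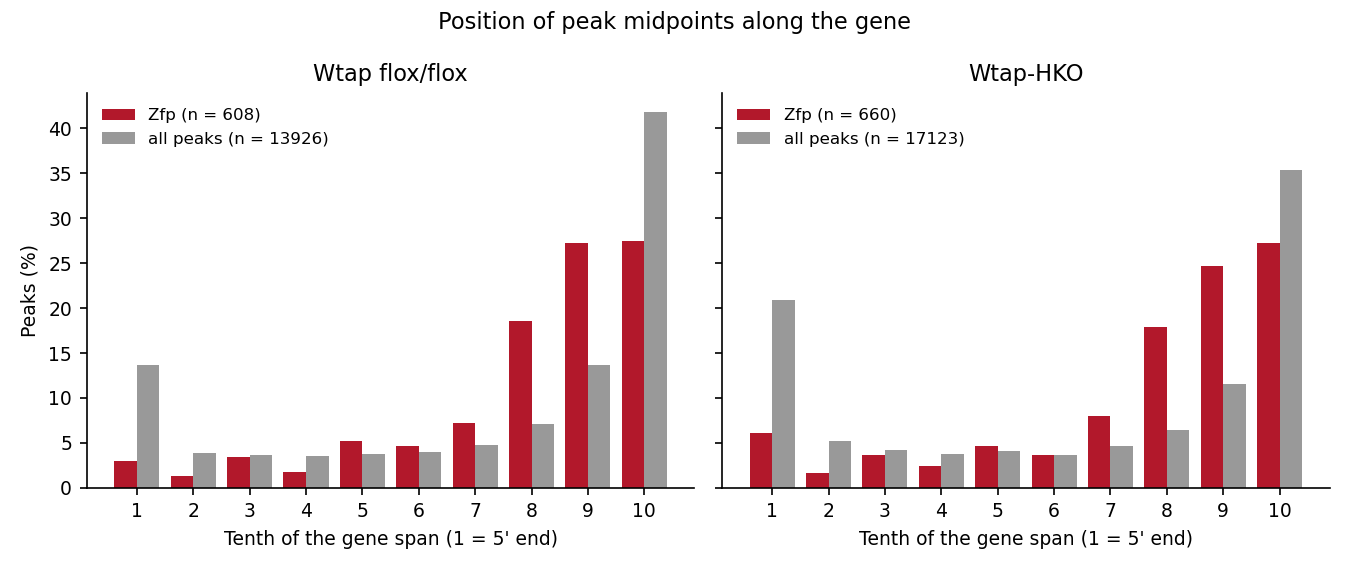
Share of peaks (%) by the bin, of 10 equal bins of the RefSeq gene span, that holds the peak's midpoint, 1 being the 5′ end, for Zfp peaks and all peaks in each genotype's list. All peaks gather in the last bin and, in *Wtap*-HKO, in the first (20.9%). The last 3 bins hold 73.4% and 69.8% of Zfp peaks, against 62.6% and 53.5% of all peaks. Few Zfp peaks lie in the first bin (2.96% and 6.06%).

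The peaks near the 5′ end of Zfp genes can be named. The control ones lay in Zfp36l1, Zfp768, Zfp622, Zfp212, Zfp281, Zfp653, Zfp91, Zfp764, Zfp236 and Zfp943, with fold enrichments from 3.51 to 13.6, and 2 of the 10 had no *Wtap*-HKO counterpart, where 7.02% of all 1496 control peaks near a 5′ end had none. Of the 21 in *Wtap*-HKO, 12 (57.1%) had no counterpart, close to the 52% of all 3117 such peaks. The highest of these were Zfp652 (39.8), Zfp704 (30.7), Zfp444 (18.1) and Zfp69 (17.2). The Zfp652 peak had 3 exonic blocks from chr11:95712733 to 95749081. Its midpoint lay upstream of the gene span, and only its downstream edge was near the 5′ end. Matched 1 to 1 and near the 5′ end in both lists were 5 peaks. They had fold enrichments of 11 and 9.94 in Zfp236, 5.52 and 5.7 in Zfp622, 5.8 and 9.94 in Zfp212, 6.37 and 17.5 in Zfp281, and 3.51 and 10.2 in Zfp36l1, controls first. Their median log2 ratio of 0.78 stood beside 0.84 over the 1232 such peaks of all genes. Nearness was read from peak edges against the gene span. By that rule the *Wtap*-HKO peaks of Zfp768 and Zfp787, shown above over the annotated start, were not counted among the 21. The Zfp768 pair (3.84 in the controls and 11.1 in *Wtap*-HKO) is therefore not among these 5. Zfp653 (8.08 and 6.32, controls first) and Zfp91 (8.34 and 12.2) had a peak with a counterpart near the 5′ end in both lists. Neither was matched 1 to 1, so neither is among the 5.

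Most Zfp peaks were present in both genotypes. A counterpart was any peak of the other list on the same strand sharing at least 1 exonic base. Of 614 control Zfp peaks, 121 had no *Wtap*-HKO counterpart (19.7%, Wilson interval 16.8 to 23), where 19.9% of all peaks had none. In *Wtap*-HKO, 169 of 671 had no control counterpart (25.2%, 22 to 28.6), where 35.3% of all peaks had none. The share without a counterpart was thus close to the background in the controls and below it in *Wtap*-HKO. This was not particular to Zfp genes. Of Zbtb, Zscan and Zkscan peaks, 78.7% in the controls and 82.1% in *Wtap*-HKO had a counterpart, where 80.3% and 74.8% of Zfp peaks did. By genes, 253 of the 307 (82.4%) had a peak in both lists, against 70% of all genes, 19 had one in the controls alone and 35 in *Wtap*-HKO alone. The genes of the controls alone were 6.19% of the Zfp genes, near the 7.99% of all genes, and those of *Wtap*-HKO alone were 11.4%, against 22% of all genes. The KRAB class had 151 genes in both lists, 15 in the controls alone and 21 in *Wtap*-HKO alone, and the C2H2 class had 93, 4 and 13.

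Genes with peaks in 1 list alone included strongly enriched ones, and the 4 highest of each list were KRAB genes, as were 15 of the 19 in the controls and 21 of the 35 in *Wtap*-HKO. Those of the controls alone were Zfp354b (46.6), Zfp647 (26.3), Zfp689 (25.5) and Zfp667 (24.6), each with 1 peak of 150 to 269 nucleotides. In *Wtap*-HKO alone they were Zfp37 (50.6), Zfp82 (48.8) and Zfp248 (37), with 2 peaks each, and Zfp287 (34.3), with 1. None of the 8 had a row in the differential list. Of all Zfp genes of the controls alone, 2 of the 19 had a lower row (Zfp598 and Zfp874a). Of the 35 of *Wtap*-HKO alone, 1 had a higher row (Zfp61). Over all genes with a peak in either list, 16.8% had a lower row and 12.6% a higher one. The shares over all genes of 1 list alone were not computed, so these counts are a description only.

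Where peaks could be matched 1 to 1, Zfp enrichment was slightly lower in *Wtap*-HKO. Over 383 Zfp pairs the median fold enrichment was 8.67 in the controls and 7.08 in *Wtap*-HKO. The median log2 ratio was −0.17 (quartiles −0.76 and 0.43) against 0.01 over all 10499 pairs. It was −0.21 over 209 KRAB pairs and −0.14 over 163 C2H2 pairs. Pairs of Zbtb, Zscan and Zkscan genes had a median of −0.34 over 98 pairs, and 19.4% of them were over 2-fold lower. Fold enrichment was over 2-fold lower in *Wtap*-HKO in 65 Zfp pairs (17%, Wilson interval 13.5 to 21.1), against 12.4% of all pairs. It was over 2-fold higher in 42 (11%, 8.22 to 14.5), against 14.9%. These intervals give counting error only and take pairs as independent, although several pairs could lie in 1 gene. The lengths of the matched peaks were alike, with medians of 301 and 300 nucleotides.

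The ratio moved with the level in the controls and with position, and the part of either in the lower median was not tested. The control level is also the denominator of the ratio, so some fall of the ratio with that level is built in. Among pairs with a control fold enrichment under 5, the median log2 ratio was 0.20 for 69 Zfp pairs and 0.33 for all pairs. From 10 to below 20 it was −0.37 over 106 Zfp pairs and −0.33 over all, and at 20 or more it was −1.20 over 57 Zfp pairs and −0.56 over all 760. In the last 3 bins of the gene it was −0.22 over 275 Zfp pairs and −0.20 over all pairs, and in the second to the seventh bin −0.04 over 96 Zfp pairs and 0.06 over all.

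The pairs that changed most were largely in KRAB genes, which made up 209 of the 383. Over 4-fold lower in *Wtap*-HKO were 17 Zfp pairs (4.44%), against 1.57% of all pairs, and 12 of them were in KRAB genes. The furthest were Zfp54 (43 and 4.52, with a second peak at 28.5 and 5.3), Zfp275 (30.7 and 3.86), Zfp235 (33.4 and 4.72), Zfp446 (31.6 and 5.22), Zfp605 (32.5 and 5.42) and Zfp974 (42.2 and 7.08), controls first. The others were Zfp930, Zfp72, Zfp229, Zfp951, Zfp280b, Zfp420, Zfp597, Zfp13, Zfp41 and Zfp668. Only 5 pairs (1.31%) were over 4-fold higher, against 2.48% of all, and all 5 were in KRAB genes. These were Zfp101 (6.06 and 37.9), Zfp69 (15.4 and 85.8), Zfp52 (25.5 and 116), Zfp946 (3.73 and 15.8) and Zfp90 (10.8 and 44.3). Zfp54 and Zfp52 lie close together on chromosome 17, and their peaks went in opposite directions.

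**Figure D3:**
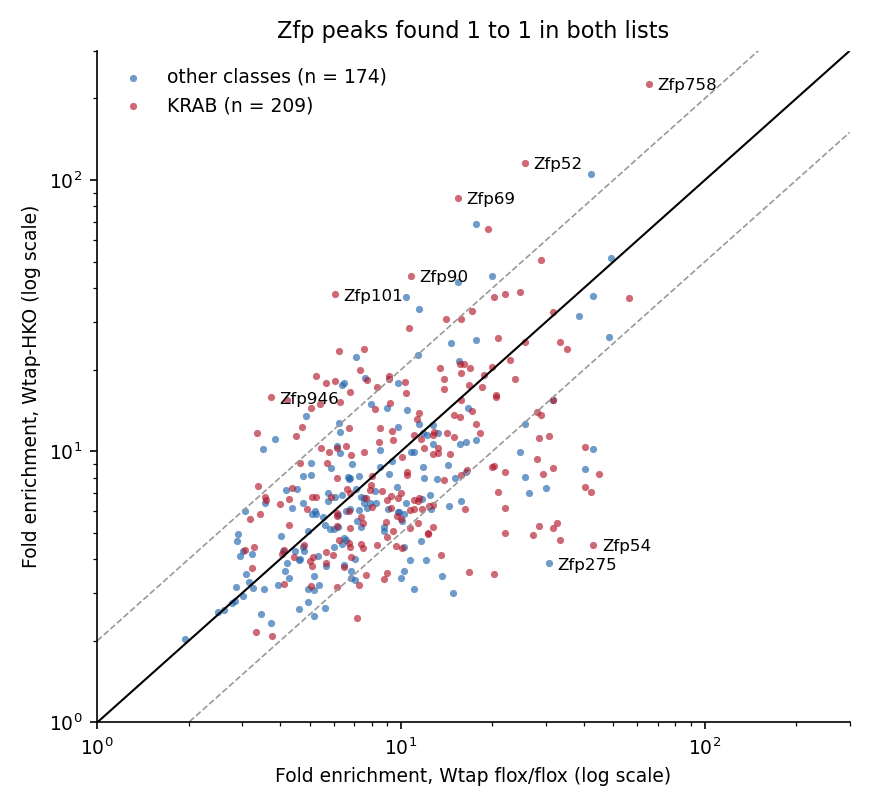
Fold enrichment of the 383 Zfp peaks matched 1 to 1, with the controls on the x axis and *Wtap*-HKO on the y axis (log scales), 1 point a peak. The solid line marks equal values and the dashed lines a 2-fold difference, beyond which 65 points lie below and 42 above.

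The deposited differential list held a smaller share of Zfp genes than of all genes with a peak. It came from the peak caller's own comparison of the genotypes at a p-value under 0.01, made on combined replicates, so its p-values measure counting error and not the spread between mice. It held 29 Zfp rows with lower enrichment in *Wtap*-HKO, in 27 genes, and 16 with higher enrichment, in 16 genes. Of the 307 Zfp genes, 8.79% had a lower row (Wilson interval 6.11 to 12.5), against 16.8% of all genes with a peak, and 5.21% had a higher row (3.23 to 8.3), against 12.6%. The lower −log10 false discovery rate of Zfp peaks given above goes with this smaller share, and its part was not tested. A lower row was listed for 8 of 187 KRAB genes (4.28%) and for 14 of 110 C2H2 genes (12.7%), and a higher row for 8 of each (4.28% and 7.27%). The median log2 fold change was −1.05 over the lower Zfp rows and −1.02 over all lower rows, and 1.10 and 1.17 over the higher rows.

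The 5 lowest Zfp rows were in KRAB genes. Zfp882 had a log2 fold change of −3.92, with a peak of fold enrichment 27.2 in the controls and none at that place in *Wtap*-HKO. Zfp607a followed at −2.58, with peaks of 36 and 29.9 in the controls and 8.43 in *Wtap*-HKO. Zfp729a was at −2.23, with 79.9 and 73.8 against 14.5 and 12.3. Zfp597 was at −2.15 (16.7 and 3.58), and Zfp874a at −1.91, with 4.71 in the controls alone. Zfp444 and Zfp35 were both at −1.50, at places with a peak in the controls (2.48 and 6.71) and none in *Wtap*-HKO.

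The highest rows were of both classes. Zfp61 had a log2 fold change of 2.30, and no peak at all in the controls. Zfp653 was at 1.97, in a peak of fold enrichment 5.33 far from the start-site peak shown above. Zfp503 was at 1.61 (17.6 in the controls and 69 in *Wtap*-HKO, while its other matched peak went from 48.3 to 26.4), Zfp950 at 1.50, Zfp217 at 1.36 and Zfp560 at 1.27. Zfp217 encodes a transcription factor known to bind METTL3. It had 5 peaks in each list, and the differential one (9.68 in *Wtap*-HKO) had no control counterpart.

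**Figure D4:**
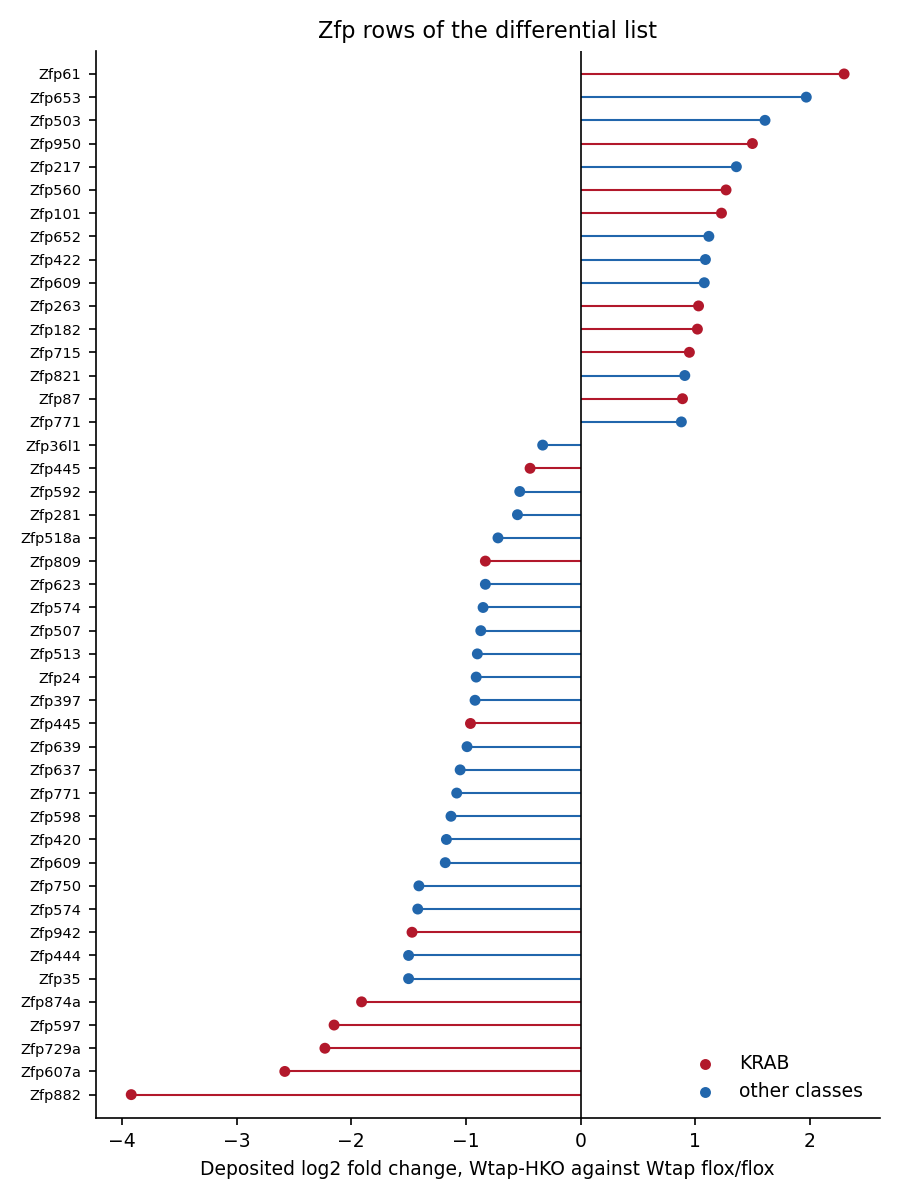
Deposited log2 fold change of the 45 Zfp rows of the differential list (x axis, *Wtap*-HKO against controls), 1 row a peak and named by gene, with KRAB genes in red and other classes in blue. The 29 lower rows run from −3.92 to −0.33 and the 16 higher rows from 0.88 to 2.30.

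The rows between these extremes included genes with known roles. Zfp598 (−1.13) encodes the ubiquitin ligase that marks collided ribosomes, Zfp750 (−1.41) a regulator of epidermal differentiation, Zfp809 (−0.83) a KRAB protein that silences proviruses, and Zfp445 (−0.96 and −0.44) a KRAB protein of imprinted loci. The −0.96 row of Zfp445 had a fold enrichment of 1.57 over both genotypes, and neither genotype's list had a peak at that place. Zfp771 and Zfp609 had rows in both directions. In Zfp771 a peak 519 nucleotides from the 3′ end was lower (−1.08) and one at 16.1% of the span was higher (0.88), the latter with fold enrichments of 3.57 in the controls and 6.46 in *Wtap*-HKO. In Zfp609 the lower row (−1.18) lay at 92.6% of the span and the higher row (1.08) at 23.1%.

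The higher Zfp rows lay mostly outside the start of the gene. Of the 15 that could be placed, 1, in Zfp263, had an edge within 200 nucleotides of the 5′ end (6.67%, Wilson interval 1.19 to 29.8), where 46.9% of all higher rows did. In the last 3 bins of the span lay 10 of the 15, where 28.2% of all higher rows lay. Of the 29 lower Zfp rows 22 lay there (75.9%), against 82.1% of all lower rows.

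The CCCH genes, whose products bind mRNA, had a median fold enrichment of 3.17 over 6 control peaks and of 8.68 over 5 *Wtap*-HKO peaks. Zfp36, which encodes tristetraprolin, had peaks of 5.88 and 1.64 in the controls and a single peak of 8.68 in *Wtap*-HKO, where the weaker one was not listed. Zfp36l1 had 3 peaks in each list, of which a control peak of 2.59 at 92.7% of the span had no *Wtap*-HKO counterpart. Its start-site peak went from 3.51 to 10.2, while the peak in the body of the gene (2.83 in the controls) was split into peaks of 2.14 and 1.33 in *Wtap*-HKO, and its differential row was −0.33, the smallest absolute change of all Zfp rows. Zfp36l2 had 1 long peak of 11.8 in the controls and 11.7 in *Wtap*-HKO (1496 and 1556 nucleotides).

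Genes for proteins that act with these factors were taken from set lists. Of 14 genes for the KRAB co-repressor pathway, 7 had a peak in the controls and 8 in *Wtap*-HKO. Trim28, the co-repressor itself, had none, nor had Cbx3, Cbx5, Hdac1, Dnmt1 and Uhrf1. Setdb1 had peaks of 4.09 and 3.92 in the controls and 4.51 and 5.52 in *Wtap*-HKO. Over all genes with a peak, 16.8% had a lower differential row and 12.6% a higher one. Of the 8 co-repressor genes with a peak in either list, none had a lower row and 3 had a higher one, namely Atf7ip (0.84), a cofactor of SETDB1, the heterochromatin protein gene Cbx1 (0.80) and the remodeller gene Chd3 (0.78). Of 10 CCR4-NOT genes, 5 had a peak in the controls and 7 in *Wtap*-HKO, and none of these 7 had a differential row. *Wtap* itself had 3 peaks in each genotype and a differential row of −0.74. Peaks in whole liver do not check the deletion, since non-hepatocyte cells keep the gene and the floxed exon was not located.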

How the data were processed

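m6ARIP-seq was performed on livers of 8-week-old mice, with 2 IP and 2 input libraries per genotype and a read length of 150 nucleotides. Per the submitters' processing notes, reads were trimmed with fastp 0.19.11 and aligned with BWA 0.7.12 to GRCm38, and HOMER 4.9.1 was used for motifs. Peaks and differential peaks were called with exomePeak, replicates combined. The authors deposited, for each peak, a linear ratio (fold enrichment of IP over input) and scores that are log10 values of the p-value and false discovery rate. The deposited differential list adds a log2 fold change (*Wtap*-HKO against *Wtap* flox/flox) with its own log10 scores, and it is used as the peak caller's value. Depth per library was not given, so counting error of the fold enrichments is unknown.

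From these lists, members were taken by symbol, peaks were compared by shared exonic bases on the same strand, and peaks overlapping exactly 1 peak of the other list were paired. Classes came from the InterPro names in the lists, since a protein table was not used here, and positions from RefSeq gene spans matched by symbol. Apart from the start-site windows, no peak sequence was read, since no genome was used. Scripts (Python 3.11.15, pandas 2.3.3, numpy 2.4.6, scipy 1.17.1) were tested on simulated peaks. No test was run between genotypes. Named genes were Zfp36, Zfp36l1 and Zfp36l2, the genes with most peaks, the highest, longest and most changed peaks, genes of 1 list alone, and pairs past 4-fold. Members and lists were chosen with earlier results of these data known. Start-site peaks and some differential genes were named after their values were seen.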

Additional observations from a re-analysis of the deposited data

How the results depend on the processing

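Counts and shares were recomputed under 52 alternatives over 13 results, of which 41 stayed within 1.5 times the count, within the 95% interval of the share or median, or in the same direction. Requiring 50% of the exonic bases to be shared lowered the share of Zfp peaks with a counterpart from 80.3% to 71.5% in the controls. In *Wtap*-HKO it fell from 74.8% to 67.8%. The shares over all peaks at that setting are not given here, so the standing against the background is open. Requiring an absolute log2 fold change over 1 left 15 of the 29 lower differential rows (51.7%), against 51.5% of all lower rows. A differential false discovery rate under 1e-05 left 13 lower and 6 higher Zfp rows. Widening the distance to 500 nucleotides raised the share near the 3′ end to 7.24% and 6.52% (17.2% and 14.1% over all peaks) and the share near the 5′ end in *Wtap*-HKO to 4.85% (22.3% over all peaks). By midpoint, 27.5% and 27.3% lay in the last of 10 bins and 6.06% of *Wtap*-HKO peaks in the first. These alternatives are stricter or wider by construction. Leaving out peaks that share bases with another gene's peak was chosen after seeing the data and left the median log2 ratio of matched peaks at −0.17. No paired analysis was possible because replicates were combined in 1 list per genotype, and for the same reason no replicate could be left out.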

Other observations

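Genes named neither Zfp, Zbtb, Zscan nor Zkscan can also encode KRAB proteins. Genes with a KRAB entry and a symbol other than Zfp held 75 peaks in 37 genes in the controls and 80 peaks in 36 genes in *Wtap*-HKO, and some of these are Zkscan genes. Their median fold enrichments of 8.72 and 7.38 lay between those of the KRAB Zfp peaks and those of all peaks. In *Wtap*-HKO, 81.2% of them had a control counterpart, against 75.6% of the KRAB Zfp peaks, and in the controls 77.3% had a *Wtap*-HKO counterpart, against 79.1%.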
